A study of Mus musculus with 2 samples.

Results

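Transcripts of 36 mouse genes that work in DNA replication and in mitosis were followed in extracellular vesicles released by cytotoxic T lymphocytes (CTL). The genes were taken by symbol, 19 for entry into S phase and DNA synthesis and 17 for G2 and mitosis. Of the 36, 34 had an annotated probe on the array, out of 19316 genes with one, and they were covered by 35 probes. No probe used here carried the symbols Ccnb1 or Rfc4, so these are not analysed here. CTL are T cells that kill infected cells and tumour cells. Murine CTL were grown for 7 days, and vesicles in their medium were concentrated on a 750 kDa ultrafiltration membrane and bound to a DEAE column, a positively charged resin from which more negative particles need more salt to leave. RNA of the fraction eluted with 0.3 M NaCl and of the fraction eluted with 0.5 M NaCl was labelled with Cy5 and hybridised to 1 array each. Both fractions came from CTL medium, and the mouse strain, genotype and age, the stimulus and the number of preparations are not stated in the labels used.

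Cells copy their DNA once per division in S phase and separate the copies in mitosis. Origins of replication are licensed by Cdc6 and Cdt1, which load the Mcm helicase, and the sliding clamp Pcna then holds the polymerases on DNA while Rrm1, Rrm2, Tyms and Tk1 supply nucleotides. Cyclins with Cdk1, together with Plk1 and the Aurora kinases, drive mitosis, which ends when Cdc20 and Ube2c direct the destruction of cyclins by the anaphase-promoting complex. T cells divide rapidly after activation, and transcripts of both gene groups are abundant in dividing T cells. Many replication genes are induced by E2F factors at the start of S phase, and many mitotic genes are induced later through CCAAT boxes and an element named CHR.

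The promoters of the members differed along this line, as read from RefSeq windows of assembly GRCm38.p6 that run from 250 bases before to 50 bases after each annotated start. Windows were given for 32 of the 36 genes, and Mcm4, Gins2, Ccna2 and Aurkb are named only. A gene with several windows counted if any of them held a match. Both strands were searched for the CCAAT box (CCAAT), for the CHR (TTTGAA) and for E2F letters (TTCCCGC or TTGGCGC or TTCGCGC or TTGCCGC). The CCAAT box was found in 14 of 15 mitotic genes (93.3%) and in 9 of 17 replication genes (52.9%), against 42.4% of the 5854 kept genes with a window and 37.4% of all 32851 windows. The CHR was found in 11 of 15 mitotic genes (73.3%) and in 2 of 17 replication genes (11.8%), against 15.6% of kept genes and 17.9% of windows. The E2F letters were found in 12 of 17 replication genes (70.6%) and in 3 of 15 mitotic genes (20.0%), against 17.6% of kept genes and 9.57% of windows. These member counts are per gene and include dim members that were not kept. Counted per gene, 41.1% of all 27025 genes with a window held the CCAAT box, 20.2% the CHR and 10.9% the E2F letters. CCAAT and E2F matches overlapped 3 times in the members, and the CHR overlapped neither. A match is a run of letters and not a bound site, and the 0.3 M and 0.5 M values below do not measure promoters.

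The 250 bases before the start are shown for 6 members, with every match in capitals, 5′ to 3′ on the gene's own strand. Mcm5 and Cdc20 stand for the usual replication and mitotic promoter, and the other 4 belong to genes at the low or high end of the differences between fractions.
Mcm5, chr8:75109259-75109508, plus strand, a helicase subunit, with 3 E2F and 2 CCAAT matches: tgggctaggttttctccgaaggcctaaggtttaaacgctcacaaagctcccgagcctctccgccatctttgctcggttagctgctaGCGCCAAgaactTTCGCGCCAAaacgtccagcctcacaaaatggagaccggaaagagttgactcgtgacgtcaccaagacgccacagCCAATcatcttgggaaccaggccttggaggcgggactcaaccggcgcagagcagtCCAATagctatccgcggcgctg
Rrm2, chr12:24708004-24708253, plus strand, the lowest replication member at 0.5 M, with 1 E2F and 1 CCAAT match: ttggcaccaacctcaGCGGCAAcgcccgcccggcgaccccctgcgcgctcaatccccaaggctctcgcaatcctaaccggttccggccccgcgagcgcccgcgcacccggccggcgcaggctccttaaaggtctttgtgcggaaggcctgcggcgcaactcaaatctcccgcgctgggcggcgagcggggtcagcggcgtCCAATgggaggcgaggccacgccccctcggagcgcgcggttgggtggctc
Tk1, chr11:117826015-117826264, minus strand, the highest replication member at 0.5 M, with no match in these bases: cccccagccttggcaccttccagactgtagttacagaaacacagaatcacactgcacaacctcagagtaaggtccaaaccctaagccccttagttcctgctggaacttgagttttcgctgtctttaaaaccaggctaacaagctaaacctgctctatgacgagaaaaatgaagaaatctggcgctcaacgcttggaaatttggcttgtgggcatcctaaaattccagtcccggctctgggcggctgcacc
Cdc20, chr4:118437344-118437593, minus strand, with 2 CCAAT matches and 1 CHR: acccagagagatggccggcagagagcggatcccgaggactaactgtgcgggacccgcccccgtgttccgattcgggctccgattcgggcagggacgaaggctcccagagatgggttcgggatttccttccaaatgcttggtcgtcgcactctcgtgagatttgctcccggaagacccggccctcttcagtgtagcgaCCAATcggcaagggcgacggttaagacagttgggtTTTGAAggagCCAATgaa
Ccnb2, chr9:70421555-70421804, minus strand, among the higher mitotic members at 0.5 M, with 3 CCAAT matches and 1 CHR: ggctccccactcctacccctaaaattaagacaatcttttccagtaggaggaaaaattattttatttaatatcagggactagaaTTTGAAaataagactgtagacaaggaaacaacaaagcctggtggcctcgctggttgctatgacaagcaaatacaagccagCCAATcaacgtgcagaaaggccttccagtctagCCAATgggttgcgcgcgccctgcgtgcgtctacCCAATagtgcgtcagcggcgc
Mki67, chr7:135716380-135716629, minus strand, the lowest mitotic member at 0.5 M, with 3 CCAAT matches, 2 CHR and 1 E2F match: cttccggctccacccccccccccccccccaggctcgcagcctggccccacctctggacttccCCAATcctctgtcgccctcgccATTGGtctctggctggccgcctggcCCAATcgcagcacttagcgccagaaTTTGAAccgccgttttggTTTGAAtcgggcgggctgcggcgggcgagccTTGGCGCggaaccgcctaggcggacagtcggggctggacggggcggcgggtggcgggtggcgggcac
The genes at the low end, Rrm2 and Mki67, carried the letters of their groups, and so did Ccnb2 at the high end, whereas Tk1 carried none. 

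Each array gave 1 intensity per probe on a linear scale, with 18969 of 23473 probes filled at 0.3 M and 16732 at 0.5 M. Differences are log2 intensity at 0.5 M minus 0.3 M after each array was centred on its median over the 16154 probes filled on both, which removed a shift of -0.30. A gene was kept when its level reached the midpoint of all measured genes in either fraction, about 32.0 at 0.3 M or 26.1 at 0.5 M, and 7446 of 13735 genes did. There is 1 array per fraction, so no difference has a test, a p-value or a replicate error. The SD between probes of the same gene, over 358 kept genes with several probes, was 0.55, and the SD of all kept differences was 0.56. That spread leaves out the variation between vesicle preparations. Fewer vesicles with a transcript and fewer copies per vesicle cannot be told apart here.

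The CTL label was checked on marker genes. Of the 15 CTL markers with a probe 13 were kept, with Cd8a at 3677 (0.3 M) and 2463 (0.5 M) and the granzyme Gzmb at 2493 and 2838, while Cd3e was dim at 12 and 14. Another Cd8a probe was empty on both arrays. The kept CTL markers had a median difference of 0.49, with 9 above 0 and 4 below, Cd8a (-0.28) among the latter. Of 9 B cell markers with a probe 4 were kept, and 3 of these were at least 2-fold higher at 0.5 M, among them Cd79b at 94 and 328. One of the 3, Blnk (26 and 63), reached the filter level at 0.5 M alone, where it was high. The remaining kept marker, Cd22, was lower at 0.5 M, at 225 and 126 (-0.54). The shares over all kept genes were 5.24% at least 2-fold higher and 2.35% at least 2-fold lower. Of 16 myeloid and MHC class II markers 6 were kept, 2 of them at least 2-fold higher at 0.5 M, among them H2-Aa at 188 and 863, and 1 at least 2-fold lower, Mrc1 at 259 and 87. Of 8 red cell markers 5 were kept, with Hba-a2 at 12001 and 5681. Dividing cells of any of these types can carry replication and mitosis transcripts, and their part in the results below was not tested.

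Of the 34 probed members, 33 (97.1%) had a value on both arrays, against 71.1% of all genes. Gins2, a subunit of the GINS complex that joins the Mcm helicase, was the exception, empty at 0.3 M and 5 at 0.5 M, the lowest intensity on that array. The filter kept 25 members, 13 of replication and 12 of mitosis, and 8 measured members were dimmer. Among the dimmer ones Kif11 was at 4 at 0.3 M, the lowest intensity on that array. How empty cells were set is not given, so a value alone does not show clear detection. Cdc6 was the 1 member that passed by its 0.5 M value alone (30 and 35), Rrm1 lay just inside on both arrays (34 and 29), and Pola1 lay just outside (26 and 24). Across the 25 kept members the centred levels of the 2 arrays correlated at Pearson r 0.96 and Spearman rho 0.92, close to 0.95 and 0.91 across all 7446 kept genes. These coefficients run across genes, which are not replicates, and bright probes are bright on both arrays.

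**Figure D1:**
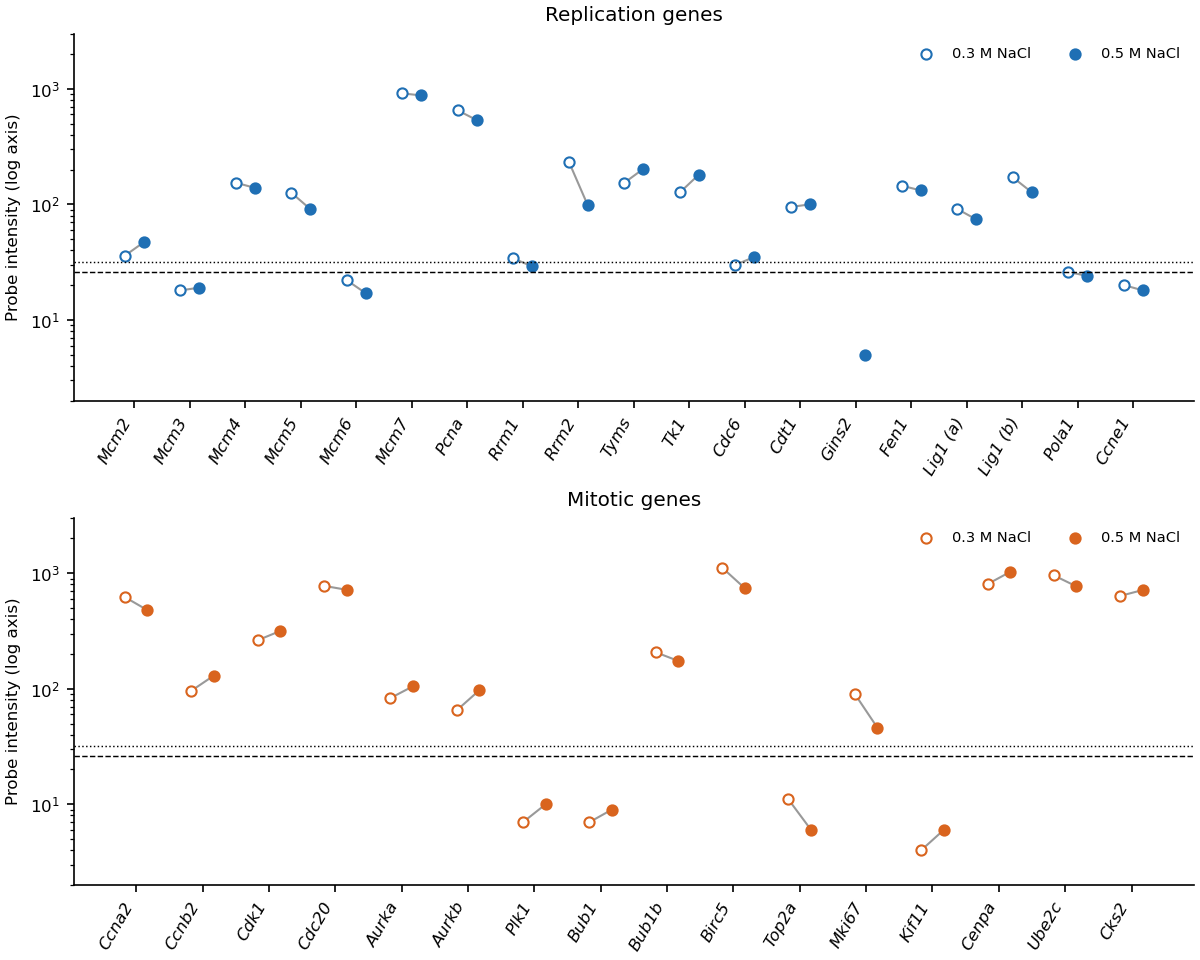
Deposited probe intensity (log axis) of every member probe at 0.3 M NaCl (open) and 0.5 M NaCl (filled), with a line joining the same probe. Replication genes are blue and mitotic genes orange, and the dotted (0.3 M) and dashed (0.5 M) lines mark the filter level of each array. Rrm2 and Mki67 have the steepest downward lines among kept members, and Gins2 has a point at 0.5 M alone.

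With centring, no kept member differed by 2-fold. At least 2-fold higher at 0.5 M were 0 of 25 members, where 5.24% of all kept genes were, and at least 2-fold lower were 0 of 25, where 2.35% of kept genes were. Under 3 other scalings 1 member, Rrm2, was at least 2-fold lower. The background turned as well, from 390 genes higher and 175 lower with centring to 121 and 579 as deposited, 242 and 288 with quantile normalization and 231 and 293 with loess. Differences ran from -0.95 for Rrm2 to 0.88 for Aurkb, with an SD of 0.46 among members. The median was 0.19 over the 25 members, with 18 above 0, beside 0.08 over all kept genes, of which 4159 (55.9%) were above 0. Without the filter the median was also 0.19 over 33 members, with 24 above 0 (72.7%), beside 0.05 over all 13735 genes, with 53.8% above 0. As deposited the kept members had a median of -0.11 and all kept genes -0.22, so the sign of the median rests on the centring. Quantile normalization gave the members a median of 0.046 and loess 0.065, and in each 14 of 25 lay above 0. More than 1 SD between probes from 0 were 10 of 25 members, against 32.7% of kept genes. Since no kept member reached 2-fold, none could lie more than 2 SD (1.10) from 0.

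The order of the replication and mitotic medians rested on the scaling. The 13 kept replication genes had a median of 0.16 and the 12 kept mitotic genes 0.33. Replication minus mitotic was -0.16, beside a spread of 0.28 expected for this gap from the SD between probes. With 1 array per fraction the gap has no replicate error and no test. It shrank to -0.03 with quantile normalization and turned to 0.03 when a loess trend on level was removed. With all 33 measured members it was -0.35 (medians 0.16 over 17 and 0.52 over 16), but the 4 mitotic genes this adds, Plk1, Bub1, Top2a and Kif11, had intensities of 4 to 11. With replication narrowed to Mcm2 to Mcm7, Pcna, Rrm1, Rrm2 and Tyms, 8 of them kept, it was -0.22. With the S phase cyclins Ccne1 and Ccna2 left out it was -0.30. Ccne1 was not kept in any case, so that move came from leaving out Ccna2 alone. Genes of each group lay on both sides of 0, 10 above and 3 below for replication and 8 above and 4 below for mitosis.

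**Figure D2:**
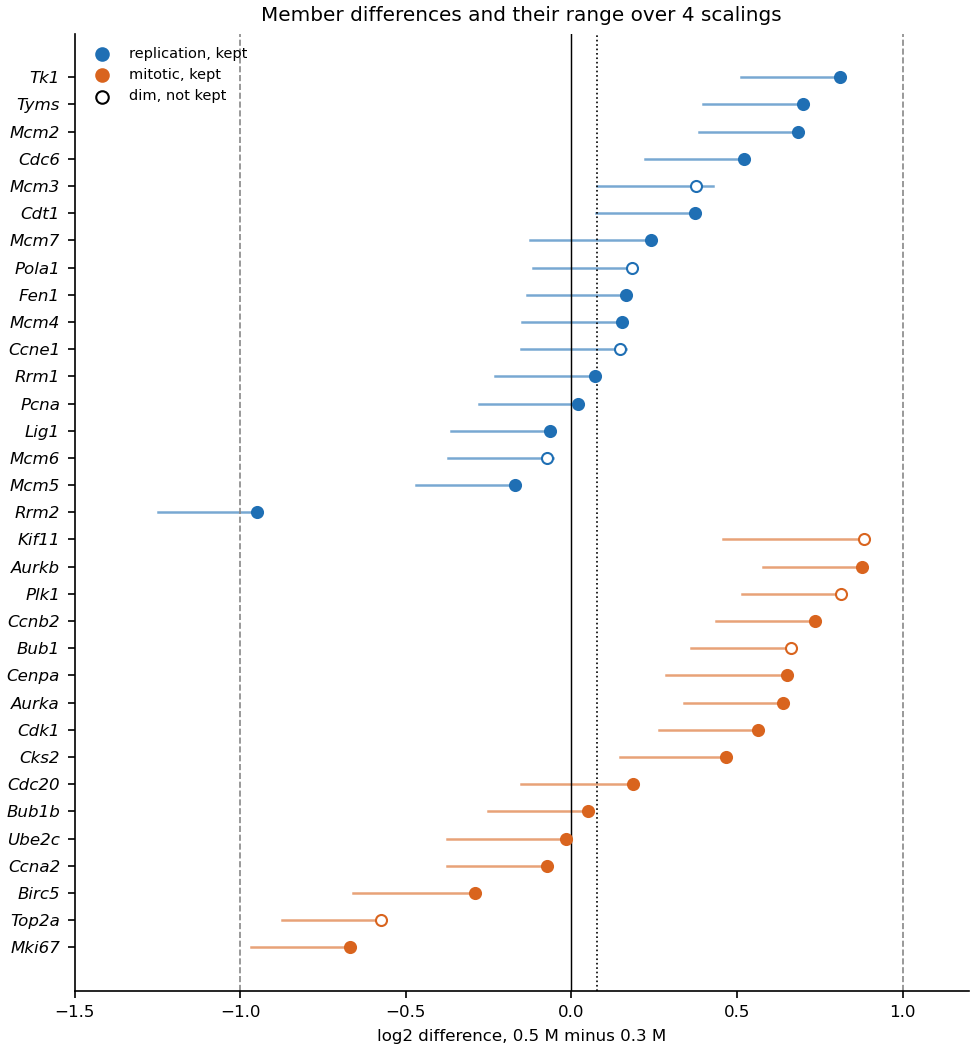
Log2 difference (0.5 M minus 0.3 M) of the 33 members measured on both arrays, mitotic below and replication above. Points are centred values (open where the gene was too dim to be kept), horizontal lines span centred, as deposited, quantile and loess values, dashed lines mark 2-fold, and the dotted line is the median of all kept genes, 0.08. Rrm2 is the 1 kept member whose span crosses a 2-fold line, and the ranges of the groups overlap.

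Both licensing factors had values somewhat higher at 0.5 M. Cdc6, the ATPase that brings the helicase to origins, went from 30 to 35 (0.52), and its partner Cdt1 went from 95 to 100 (0.37). Cdc6 reached the filter level at 0.5 M alone, so its centred value had to lie above 0. Both factors lie within 1 SD between probes of 0.

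The 6 subunits of the Mcm2 to Mcm7 helicase, which form 1 ring in equal numbers, lay between -0.17 and 0.68. Mcm2 went from 36 to 47 (0.68), Mcm3 from 18 to 19 (0.38) and Mcm4 from 154 to 139 (0.15). Mcm5 went from 126 to 91 (-0.17), Mcm6 from 22 to 17 (-0.07) and Mcm7 from 914 to 877 (0.24). Mcm3 and Mcm6 were too dim to be kept. The median of all 6 was 0.20, and the largest gap, Mcm2 over Mcm5, was 0.85 against an SD of 0.78 expected between a pair of single-probe genes. Of the 6, 4 lay above 0 and 2 below, and Mcm4 and Mcm7 turned to -0.15 and -0.06 as deposited.

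Transcripts of the fork members stayed close to the centre. Pcna, the sliding clamp, went from 650 to 536 (0.02). The flap nuclease Fen1, which trims Okazaki fragments, went from 145 to 132 (0.16), and Pola1, the catalytic subunit of the priming polymerase, went from 26 to 24 (0.18, not kept). Lig1, the ligase that seals the fragments, had a pair of probes. One went from 91 to 74 (0.00) and the other from 171 to 127 (-0.13), so the only member with several probes gave closely similar differences. Ccne1, the cyclin that opens S phase, was dim at 20 and 18 (0.15, not kept).

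Nucleotide supply held both ends of the replication group. Rrm2 (probe M200000030), the small subunit of ribonucleotide reductase that rises in S phase, went from 233 at 0.3 M to 98 at 0.5 M, 1.93-fold lower after centring (-0.95). It was lower than all but 2.81% of kept genes. Rrm1, the large subunit of the same enzyme, went from 34 to 29 (0.07). Rrm2 thus lay 1.02 below Rrm1, with a gap of 1.12 with loess, and 0.78 is the SD expected between a pair of probes. Tyms, which makes thymidylate, went from 154 to 203 (0.70), and Tk1 (probe M200001015), which salvages thymidine, went from 127 to 181 (0.81). The values of these thymidylate genes differed from each other by 0.11. Rrm2 passed 2-fold as deposited (-1.25), with quantile normalization (-1.07) and with loess (-1.05), where 7.78%, 3.87% and 3.93% of kept genes were at least 2-fold lower.

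Among the kinases and cyclins of mitotic entry, Cdk1, the kinase that triggers mitosis, went from 263 to 316 (0.56) and its cyclin Ccnb2 from 96 to 130 (0.74). Cks2, a small protein that binds Cdk1, went from 637 to 716 (0.47). Aurka, which matures centrosomes, went from 83 to 105 (0.64). None of these was 2-fold from 0, and 55.9% of all kept genes had values above 0. Ccna2, the cyclin of S phase and G2, went from 621 to 479 (-0.07), and it lay 0.81 below Ccnb2. Plk1, a kinase of mitotic entry and exit, was faint at 7 and 10 (0.81, not kept), where 1 intensity unit is a large share of the value.

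Genes of the centromere and checkpoint lay on both sides. Aurkb (probe M300002450), the kinase of the chromosomal passenger complex, went from 65 to 97, 1.84-fold after centring (0.88), higher than 91.8% of kept genes. Birc5, also named survivin and a subunit of that same complex, went from 1119 to 743 (-0.29, and -0.66 with loess). Aurkb lay 1.17 above Birc5, 1.49 with loess. Cenpa, the histone variant that marks centromeres, went from 805 to 1028 (0.65). Bub1b, a checkpoint kinase-like protein, went from 207 to 174 (0.05), and Bub1 was faint at 7 and 9 (0.66, not kept).

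Transcripts of mitotic exit, Cdc20 and Ube2c, lay lower with loess than with centring, as did bright genes in general. Both are in the brightest decile of kept genes, whose median went from 0.46 with centring to 0.00 with loess. Cdc20, the activator of the anaphase-promoting complex, went from 778 to 719 (0.19, and -0.15 with loess). Ube2c, the ubiquitin-conjugating enzyme of that complex, went from 957 to 769 (-0.02, and -0.37 with loess). They differed from each other by 0.20.

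Among the chromosome and spindle genes, Mki67 (probe M200001580), which coats mitotic chromosomes and is widely used to mark dividing cells, went from 90 to 46, 1.59-fold lower after centring (-0.67), and only 8.27% of kept genes were lower. Top2a, which untangles sister DNA, was faint at 11 and 6 (-0.57, not kept). Kif11, the motor that pushes spindle poles apart, was faint at 4 and 6 (0.88, not kept). Mki67 reached -0.97 as deposited, just short of 2-fold.

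Of the 25 kept members, 18 (72.0%) had the same sign under 4 scalings (centred, as deposited, quantile and loess), beside 77.6% of all kept genes. The values as deposited differ from the centred ones by the same -0.30 for each gene, so this count mostly restates which centred values lay between 0 and that shift. Above 0 under all 4 were Cdc6, Cdt1, Mcm2, Tyms, Tk1, Cdk1, Ccnb2, Cks2, Aurka, Aurkb and Cenpa. Below 0, 7 in number, were Rrm2, Mcm5, Lig1, Ccna2, Birc5, Ube2c and Mki67. The remaining 7, Mcm4, Mcm7, Pcna, Rrm1, Fen1, Cdc20 and Bub1b, turned. Agreement between scalings does not stand in for a replicate, since all 4 use the same pair of arrays.

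The brightest members lay low for their signal. Over all kept genes the median difference climbed with level, to 0.46 in the brightest decile (745 genes, 71.0% above 0). That decile held 8 members, Mcm7, Pcna, Ccna2, Cdc20, Birc5, Cenpa, Ube2c and Cks2, 6 of them mitotic. Their differences ran from -0.29 to 0.65 with a median of 0.10, and 2 of 8, Cenpa and Cks2, lay above the median of the decile. These 8 sit at the dim side of the decile, and with the trend on level removed by loess their median was -0.22, beside 0.00 for the whole decile, with 2 of 8 above 0. The other 17 kept members had a median of 0.37, beside 0.05 for the other kept genes, and 12 of 17 lay above the median of their own decile. This division by level was made after the values were seen and has no test.

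**Figure D3:**
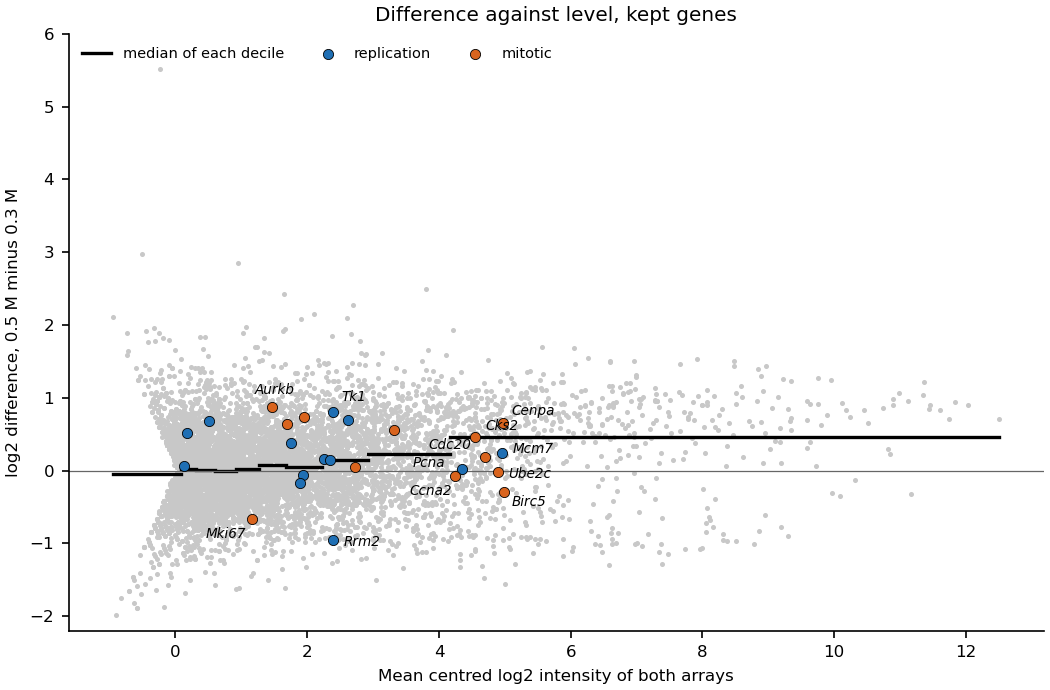
Log2 difference (0.5 M minus 0.3 M) against mean centred log2 intensity of both arrays for the 7446 kept genes (grey), with replication members in blue and mitotic members in orange. Black steps are the medians of each decile of genes by level. The steps climb to 0.46 in the brightest decile, and 6 of the 8 members there lie under that step.

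Gene span showed little relation to the difference among the members, and with 25 genes a weak relation cannot be told from none. Spearman's rho between the difference and the length of the gene in RefSeq was 0.05 over the 25 kept members and -0.19 over the 7439 kept genes with a span. The median span was 10.6 kb for the members and 15.8 kb for kept genes. These are genomic spans with introns and not transcript lengths.

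Other genes of the same pathways were taken from 8 lists, of which 129 genes were kept. At least 2-fold higher at 0.5 M were 3 (2.33%) and at least 2-fold lower 3 (2.33%), beside 5.24% and 2.35% of all kept genes, and the median was 0.05. Origin licensing and firing had a median of -0.18 over 11 genes, 0 at least 2-fold higher and 1 lower. That gene was Ticrr, which is needed for origin firing, from 78 to 30 (-1.08), and Mcm10, which helps start the fork, went from 75 to 37 (-0.72). Fork and chromatin assembly genes had a median of 0.26 over 19 genes, 1 at least 2-fold higher and 0 lower. That gene was Pold4, the smallest subunit of polymerase delta, from 80 to 163 (1.33), ahead of Pold1, its catalytic subunit, from 363 to 472 (0.68). Nucleotide synthesis genes had a median of 0.08 over 19 genes with 0 past 2-fold, led by Nme1 (0.64, and 0.11 with loess) and Dctpp1 (0.64, and 0.20 with loess), which handle nucleoside triphosphates.

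Regulators and mitotic machinery varied as widely. Cyclin and CDK control genes had a median of 0.15 over 21 genes with 0 past 2-fold, and the transcription factors E2f1 (200 to 92, -0.82) and E2f3 (28 to 39, 0.78) lay at its opposite ends. Genes of the anaphase-promoting complex and SCF ligases had a median of 0.01 over 16 genes, 2 at least 2-fold higher and 1 lower, with the scaffold subunit Anapc2 from 12 to 37 (1.92, and 1.32 with a pseudocount of 10) and Anapc13 from 176 to 302 (1.08) the largest. Anapc13 was under 2-fold in other settings, at 0.78 as deposited, 0.93 with quantile normalization, 0.92 with loess and 0.97 with the pseudocount. Kinetochore and checkpoint genes had a median of 0.25 over 20 genes, 0 higher and 1 lower. That gene was Ndc80, which binds microtubules at the kinetochore, from 46 to 12 (-1.64), while Cenpx went from 108 to 172 (0.97). Of the 6 genes of these lists past 2-fold, 3 reached the filter level on a single array, the one where they were high, and so had to differ: Anapc2, Ndc80 and Anapc15. The same holds for E2f3 and Cdca3. Condensin, cohesin and separase genes had a median of -0.24 over 10 genes, 9 of them below 0, with 0 past 2-fold. Of all 7446 kept genes 3285 were below 0. The cohesin regulator Pds5a (-0.79, mean of 2 probes) and the condensin ATPase Smc4 (76 to 39, -0.66) were the largest. With the brightest probe of each gene this list kept 11 genes, 2 above 0 and 1 at least 2-fold higher. In that setting 415 of all 7586 kept genes were at least 2-fold higher. Spindle and cytokinesis genes had a median of -0.05 over 13 genes with 0 past 2-fold, led by Tubg1, the gamma-tubulin of centrosomes (43 to 59, 0.76), and Cdca3 (32 to 42, 0.69).

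Under the other scalings the lists of licensing and of condensin and cohesin kept medians below 0, at -0.20 and -0.32 with quantile normalization, -0.18 and -0.31 with loess and -0.48 and -0.54 as deposited. The licensing median turned to 0.14 with a stricter filter, which kept 4 of its genes. The fork median was 0.076 with quantile normalization, 0.093 with loess and -0.041 as deposited. The median for nucleotide synthesis turned below 0 under these scalings, and that for cyclin and CDK control was 0.012, 0.018 and -0.15. The anaphase-promoting complex list also turned below 0, at -0.10, -0.088 and -0.29. The kinetochore median was 0.19 with quantile normalization, 0.20 with loess and -0.05 as deposited.

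**Figure D4:**
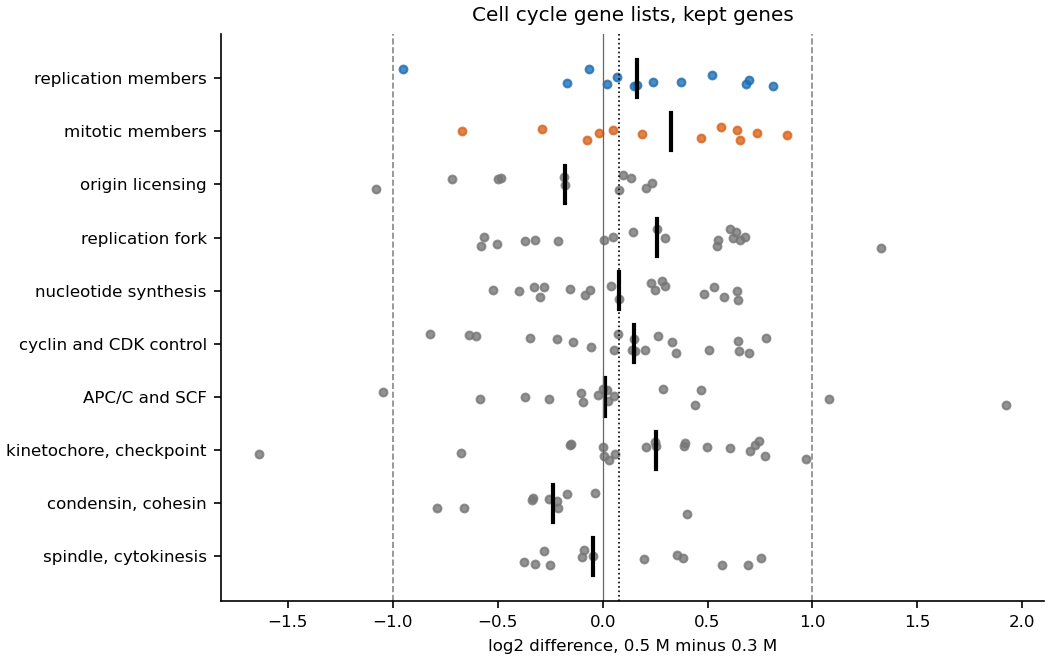
Log2 difference (0.5 M minus 0.3 M) of the kept genes in the replication and mitotic groups (blue, orange) and in 8 other cell cycle lists (grey). Each point is a gene, black bars are medians, dashed lines mark 2-fold, and the dotted line is the median of all kept genes, 0.08. The medians lie between -0.24 and 0.33, and the few genes past 2-fold are in the lists of licensing, fork, anaphase-promoting complex and kinetochore genes.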

How the data were processed

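RNA of 2 vesicle fractions was amplified and, per the labels' protocols, given the Cy5 dye and run on 1 array each. The authors deposited probe intensity values as whole numbers; for the scanner, background correction, normalization and empty cells the entry is: not given in the sources used here. Of 23473 probes, 20690 had 1 gene symbol, 0 several and 2783 none. Symbols were looked up in RefSeq (GRCm38.p6) by Entrez identifier (20556 probes) or accession (9 probes), and 125 kept the array's symbol. The array names no build, so probe positions are not given; the promoter windows carry RefSeq's coordinates.

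Intensities were log2-transformed and centred on the median over shared probes, and genes were means of their probes measured on both arrays (Python 3.11.15, pandas 2.3.3, statsmodels 0.14.6). All 36 members are named, and the 2 kept genes with the largest absolute difference of each other list. Members and lists were chosen with earlier results of these data known; promoter letters, level deciles, gene spans and pairs of subunits were chosen after the values were seen. Alternatives were values as deposited, quantile, loess (span 0.3), no or a stricter filter (percentile 75), a pseudocount of 10 and the brightest probe. The steps were tested on simulated data with a constant shift, no trend on level and less scatter than between probes of a gene here.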

Additional observations from a re-analysis of the deposited data

How the results depend on the processing

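No paired analysis was possible because each fraction has 1 array, and no array could be left out. Filters and probe choice cannot move a gene with 1 probe, and the values as deposited move each by -0.30; with quantile normalization, loess and the pseudocount members moved by at most 0.47. As deposited, medians were -0.14 for replication, 0.027 for mitosis, -0.48 for licensing, -0.041 for the fork, -0.22 for nucleotide synthesis, -0.15 for cyclins, -0.29 for the anaphase-promoting complex, -0.046 for kinetochores, -0.54 for condensin and cohesin and -0.35 for the spindle, by construction of the shift. With quantile normalization they were 0.080 for mitosis, 0.076 for the fork and -0.094 for nucleotide synthesis, and with loess 0.032, 0.093 and -0.091. The stricter filter gave 0.14 for licensing, over 4 genes, and no filter gave 0.25 for the spindle, over 22 genes. A filter changes which genes enter a median and not their values. Members at least 2-fold lower numbered 1 (Rrm2) as deposited, with quantile normalization and with loess. All kept genes at least 2-fold higher and lower were 390 and 175 (69.0% higher), against 121 and 579 as deposited (17.3%), 242 and 288 with quantile normalization (45.7%), 231 and 293 with loess (44.1%), 701 and 380 with no filter and 211 and 115 with a pseudocount, and 83 were lower with the stricter filter. Dim probes, a single array per fraction and an unknown rule for empty cells limit these values.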
